A study of Rattus norvegicus with 6 samples.

Results

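Endocannabinoid signaling was examined through 8 genes that encode its 2 receptors (Cnr1, Cnr2), the enzymes that make its main ligands (Dagla, Daglb, Napepld) and the enzymes that break them down (Mgll, Abhd6, Faah). The genes were chosen by name. They occupied 9 of 30957 rows of the gene table because Faah was listed on 2 rows, and 7 of the 8 genes had enough counts to be tested, among 14908 genes tested in all. RNA-seq had been performed on the ipsilateral lumbar enlargement of the spinal cord of female Wistar rats on day 14 after inoculation, with 3 libraries of rats with bone cancer pain (BCP rats) and 3 of sham-operated controls. The left tibia of BCP rats had been inoculated with living Walker 256 cells, a mammary carcinoma line from the rat, and that of the controls with heat-killed cells of the same line. The tissue came from one side of the cord, at a distance from the tumor, with the meninges removed, and contained all cell types of that region. The labels do not say that each library came from a separate animal, so the p-values measure only the spread between these libraries, which may be technical. The comparison of BCP with sham-operated rats asked how the transcripts of this system differed in the cord in this model of bone cancer pain.

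The endocannabinoids 2-arachidonoylglycerol (2-AG) and anandamide are lipids that cells make on demand from membrane phospholipids. In the spinal dorsal horn, postsynaptic neurons release 2-AG, which acts backward on the CB1 receptor of presynaptic terminals and lowers transmitter release. The CB2 receptor is known chiefly from immune cells, including microglia. Diacylglycerol lipases make 2-AG, monoacylglycerol lipase and the ABHD enzymes hydrolyze it, NAPE-PLD makes anandamide and related N-acylethanolamines, and fatty acid amide hydrolase (FAAH) degrades them.

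The libraries held 11779485 to 15004290 counts on genes, so that a count of 3 stood for 0.200 to 0.255 CPM, the count scaled to a common library size. Of the 14908 genes tested, 2352 (15.8%) were higher in BCP rats and 1805 (12.1%) were lower at an adjusted p under 0.05, and 946 (6.35%) and 16 (0.107%) of them also differed more than 2-fold. Values of CPM below for genes include TMM normalization. Markers of spinal cord cells were abundant, with a summed level of 3529 to 4002 CPM over 10 neuronal markers in the 6 libraries. Of the 14 microglial markers tested 10 were higher in BCP rats and none was lower, and all 8 oligodendrocyte markers were lower. All 6 T-cell markers tested were higher, and their list summed to 0.878 to 1.98 CPM in sham and 23.7 to 36.02 CPM in BCP libraries. Of 8 astrocyte markers 1 was higher and 3 were lower, and of 3 oligodendrocyte precursor markers 1 was lower. The neutrophil marker tested was higher, and the neutrophil list summed to 0.153 to 0.608 CPM in sham and 1.59 to 4.14 CPM in BCP libraries. With sham levels this low, T-cell and neutrophil markers reached the count filter mainly through BCP libraries. A lower call was hardly possible for them, so these counts of calls carry little information. None passed the test among 4 markers of monocytes and macrophages, 4 of endothelial cells, 3 of meninges and fibroblasts, 3 of dorsal root ganglion and nerve root and 1 of skeletal muscle. No B-cell or plasma-cell marker was abundant enough to be tested. Their list summed to 0.210 to 0.541 CPM in sham and 0.929 to 1.14 CPM in BCP libraries. Col1a2, a collagen of fibroblasts, was at 0 in every library.

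Of the 7 genes tested, Cnr2 was up-regulated and Dagla was lower in BCP rats, that is, 1 gene (14.3%) in each direction against 15.8% and 12.1% of all genes. Cnr2 alone among them differed more than 2-fold. It reached the count filter through the BCP libraries, so a lower call was hardly possible for it. Cnr1, Daglb, Mgll, Abhd6 and Napepld did not pass the test. The median log2 fold change of the 7 genes was -0.11, beside -0.01 over all genes tested. In CPM the libraries of the groups did not overlap for Cnr2, which was higher in BCP rats, and for Cnr1 and Mgll, which were lower, whereas 21.7% and 19.8% of all genes separated in these directions.

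**Figure D1:**
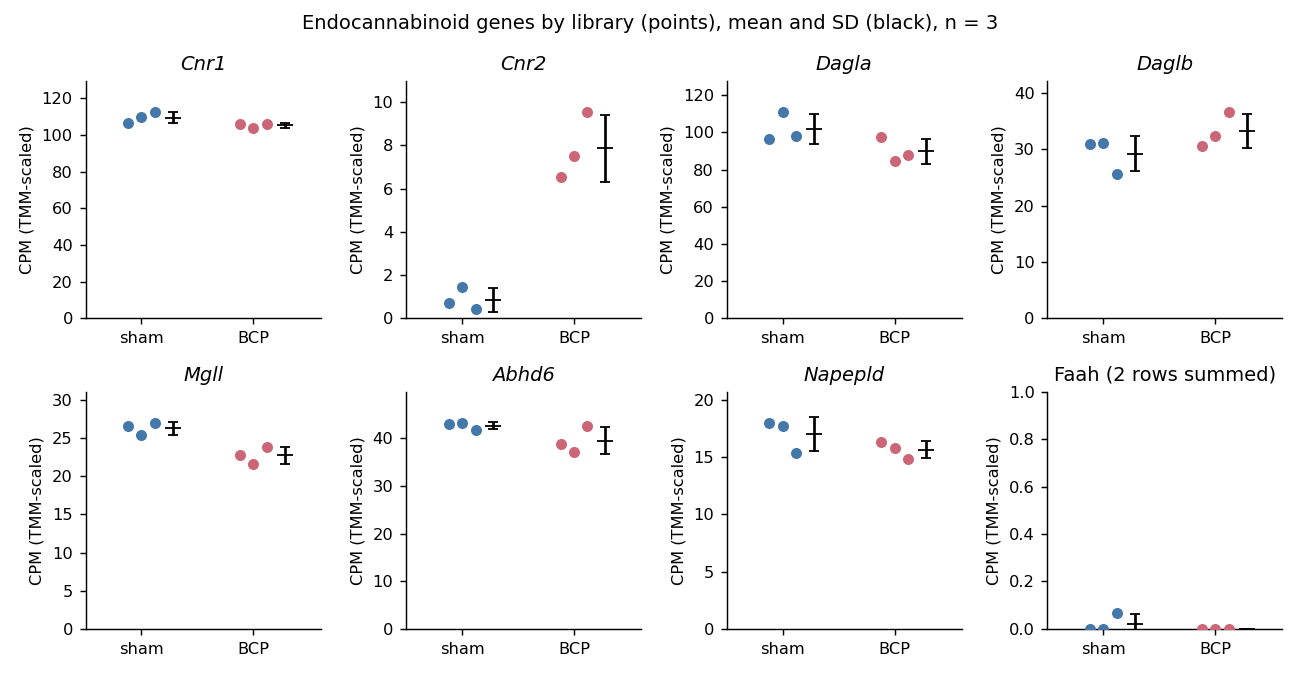
TMM-scaled CPM of the 8 genes in each of 3 sham and 3 BCP libraries, 1 panel per gene with its own axis from 0, points for libraries and black bars for mean and SD, with both rows of Faah summed. Cnr2 lay between 0.405 and 1.47 CPM in sham and between 6.51 and 9.54 CPM in BCP libraries, the other tested genes differed by far less, and Faah was at or near 0 in every library.

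Cnr2 encodes the CB2 receptor and lies on chromosome 5 at 154260062 to 154268126 of Rnor_6.0 (ENSRNOG00000009260). The starts that RefSeq lists for it are shown first because it had the largest difference of the 7 genes. There are 3 such starts on GRCr8, all on the plus strand, and each window below runs from 250 bases before a start to 50 bases after it. The third start falls on the letters ATG, at which translation can begin, so it may not be a start of transcription. Capitals mark GGAAGT or its reverse complement ACTTCC, the core bound by PU.1, a transcription factor of microglia and other myeloid cells.
Cnr2 start 1, chr5:153408934-153409233: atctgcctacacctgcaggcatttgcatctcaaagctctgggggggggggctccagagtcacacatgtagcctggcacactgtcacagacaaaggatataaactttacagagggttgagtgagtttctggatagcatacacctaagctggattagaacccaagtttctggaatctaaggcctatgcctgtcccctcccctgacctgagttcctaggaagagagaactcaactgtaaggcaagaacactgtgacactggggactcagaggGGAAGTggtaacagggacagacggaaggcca
Cnr2 start 2, chr5:153426782-153427081: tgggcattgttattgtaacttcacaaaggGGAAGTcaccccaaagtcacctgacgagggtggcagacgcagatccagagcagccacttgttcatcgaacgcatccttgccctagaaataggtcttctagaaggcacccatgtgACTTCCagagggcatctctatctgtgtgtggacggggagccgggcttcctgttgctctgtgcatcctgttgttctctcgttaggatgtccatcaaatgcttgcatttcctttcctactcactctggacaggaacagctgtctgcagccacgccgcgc
Cnr2 start 3, chr5:153431813-153432112: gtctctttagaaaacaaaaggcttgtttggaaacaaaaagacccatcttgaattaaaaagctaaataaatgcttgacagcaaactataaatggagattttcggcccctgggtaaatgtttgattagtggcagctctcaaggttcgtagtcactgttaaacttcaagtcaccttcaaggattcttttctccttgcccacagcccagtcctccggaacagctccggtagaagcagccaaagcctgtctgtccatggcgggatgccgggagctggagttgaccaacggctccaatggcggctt

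The first window held the PU.1 core once, the second held it 2 times, on opposite strands, and the third did not hold it. On either strand it occurs in 22.6% of the 33469 promoter windows of the table. The core of the interferon-stimulated response element, that is, 2 runs of GAAA with 2 bases of any kind between them, was in none of the 3 windows and is in 3.92% of all windows. The letters TTCNNNGAA, the gamma-activated site bound by STAT factors, were in the second window once and are in 8.87% of all windows. The windows held 1, 10 and 8 CpG dinucleotides, beside a median of 7 over all windows. These matches describe the letters of the reference, and binding was not measured. The third window cannot be taken as a promoter, because its listed start falls on ATG. Windows were listed for 6 of the 8 genes, and not for Cnr1 and Dagla.

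Sham libraries 1, 2 and 3 held 9, 21 and 6 counts of Cnr2, or 0.686, 1.47 and 0.405 CPM, and BCP libraries 1, 2 and 3 held 77, 105 and 126 counts, or 6.51, 7.50 and 9.54 CPM. Every BCP library was thus above every sham library, and the spread among sham libraries was wide for their level. The mean level was 0.853 ± 0.550 CPM (SD, n = 3) in sham-operated and 7.85 ± 1.55 CPM (SD, n = 3) in BCP rats. Cnr2 had a log2 fold change of 3.19 (SE 0.31, adjusted p = 3.91e-07), a 9.14-fold difference with a 95% interval of 5.78 to 14.4. The summed counts, 36 in sham and 308 in BCP libraries, gave a ratio of 9.26, relative to the TMM-scaled library sizes, with an exact 95% interval of 6.54 to 13.5, which covers counting error only. Without 1 library the log2 fold change ranged from 2.84, without sham replicate 3, to 3.85, without sham replicate 2, which had the highest sham count.

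The 14 microglial markers summed to 531.7, 508.0 and 422.9 CPM in sham libraries and to 1178, 1258 and 1440 CPM in BCP libraries. Their log2 fold changes had a median of 1.43 and reached 2.88 for C1qc, and 8 of them were higher by more than 2-fold. Per 1000 CPM of the list, Cnr2 stood at 1.29, 2.89 and 0.959 CPM in sham libraries and at 5.53, 5.97 and 6.63 CPM in BCP libraries. This ratio, which was chosen after the values had been seen, was 3.94-fold higher in BCP rats, or 1.98 on the log2 scale, and an exact two-sided permutation test gave p = 0.1, the smallest value that 3 against 3 libraries allow. The 6 T-cell markers tested, which reached the count filter mainly through BCP libraries, had a median log2 fold change of 6.15. The part of microglia, of T cells and of B cells in the level of Cnr2 was not tested, and in bulk tissue more cells of a type and more RNA per cell cannot be told apart.

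**Figure D2:**
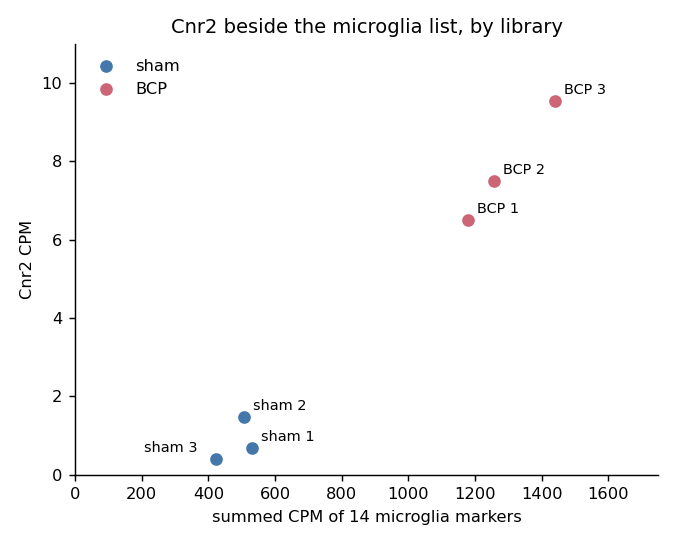
CPM of Cnr2 against the summed CPM of 14 microglial markers, 1 point per library. The 3 BCP libraries lay above the 3 sham libraries on both axes, at 1178 to 1440 CPM of the marker list against 422.9 to 531.7 CPM, so the points form 2 separate groups and no correlation was computed.

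Cnr1, which encodes the CB1 receptor, lies on chromosome 5 at 49311030 to 49333056 (ENSRNOG00000008223). Its level was 106.4, 109.6 and 112.6 CPM in sham libraries and 105.9, 104.0 and 106.1 CPM in BCP libraries. The groups did not overlap, but the gap between the lowest sham and the highest BCP library was small beside the spread of the sham libraries. Cnr1 had a log2 fold change of -0.06 (SE 0.05, adjusted p = 0.452), with a 95% interval from -0.16 to 0.05 on the log2 scale. The share of Cnr2 in the summed FPKM (fragments scaled by transcript length and library size) of both receptors was 0.743%, 1.53% and 0.416% in sham libraries and 6.66%, 7.73% and 9.45% in BCP libraries. The log2 ratio of Cnr2 to Cnr1 was 3.44 higher in BCP rats (exact two-sided permutation test, p = 0.1, or 0.2 adjusted over the 4 ratios tested).

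Dagla and Daglb encode the diacylglycerol lipases that make 2-AG, of which DAGLα is the main enzyme at synapses and DAGLβ is prominent in microglia and macrophages. Dagla, on chromosome 1 at 226297016 to 226353611 (ENSRNOG00000027264), stood at 96.5, 111 and 98.1 CPM in sham libraries and at 97.4, 84.5 and 87.7 CPM in BCP libraries. The groups overlapped, since BCP replicate 1 was above sham replicate 1. The mean level of Dagla was 101.9 ± 7.92 CPM (SD, n = 3) in sham-operated and 89.9 ± 6.73 CPM (SD, n = 3) in BCP rats. The log2 fold change of Dagla was -0.18 (SE 0.07, adjusted p = 0.0446), a difference of -11.9% with a 95% interval from -19.9% to -3.07%. The call rested on the setting, as it was lost under 8 of 15 alternatives, among them DESeq2 (adjusted p = 0.0808) and the fits without sham replicate 2 (adjusted p = 0.237), without BCP replicate 2 (adjusted p = 0.197) or without BCP replicate 3 (adjusted p = 0.134). Of the 10 neuronal markers 4 were lower in BCP rats and none was higher, with a median log2 fold change of -0.10, and the part of neuronal content in the level of Dagla was not tested.

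Daglb, on chromosome 12 at 13114003 to 13157570 (ENSRNOG00000001079), stood at 31.0, 31.1 and 25.6 CPM in sham libraries and at 30.7, 32.4 and 36.7 CPM in BCP libraries. The groups overlapped in BCP replicate 1. The log2 fold change of Daglb was 0.19 (SE 0.10, adjusted p = 0.165), with a 95% interval from -0.01 to 0.39. Dagla made up 54.4%, 57.8% and 59.5% of the summed FPKM of both lipases in sham libraries and 54.9%, 50.1% and 47.9% in BCP libraries. The log2 ratio of Dagla to Daglb was -0.37 in BCP relative to sham-operated rats (exact two-sided permutation test, p = 0.2, where 0.1 is the smallest value possible).

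Mgll encodes monoacylglycerol lipase, the main hydrolase of 2-AG in the nervous system, and lies on chromosome 4 at 120671489 to 120771088 (ENSRNOG00000014508). Its level was 26.5, 25.4 and 27.0 CPM in sham libraries and 22.8, 21.6 and 23.8 CPM in BCP libraries. Each BCP library was below each sham library. For Mgll the log2 fold change was -0.21 (SE 0.09, adjusted p = 0.0847), so Mgll did not pass the test although its difference was larger in size than that of Dagla. With upper-quartile normalization, which lowered the median log2 fold change of all genes to -0.05, the value for Mgll was -0.25 and it passed (adjusted p = 0.0414).

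Abhd6, whose product hydrolyzes 2-AG at postsynaptic sites, lies on chromosome 15 at 18647844 to 18695133 (ENSRNOG00000008167). It stood at 42.9, 43.2 and 41.7 CPM in sham libraries and at 38.7, 37.0 and 42.6 CPM in BCP libraries, where replicate 3 lay within the sham range. The log2 fold change of Abhd6 was -0.11 (SE 0.08, adjusted p = 0.320), with a 95% interval from -0.27 to 0.05. The log2 ratio of Mgll to Abhd6 was -0.10 in BCP relative to sham-operated rats (exact two-sided permutation test, p = 0.2). Abhd12, a further hydrolase of 2-AG and of lysophosphatidylserine, made up most of the summed FPKM of the 3 hydrolases, 75.9% ± 0.515 (SD, n = 3) in sham-operated and 78.0% ± 1.37 (SD, n = 3) in BCP rats, and its own log2 fold change was 0.00 (adjusted p = 0.963).

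**Figure D3:**
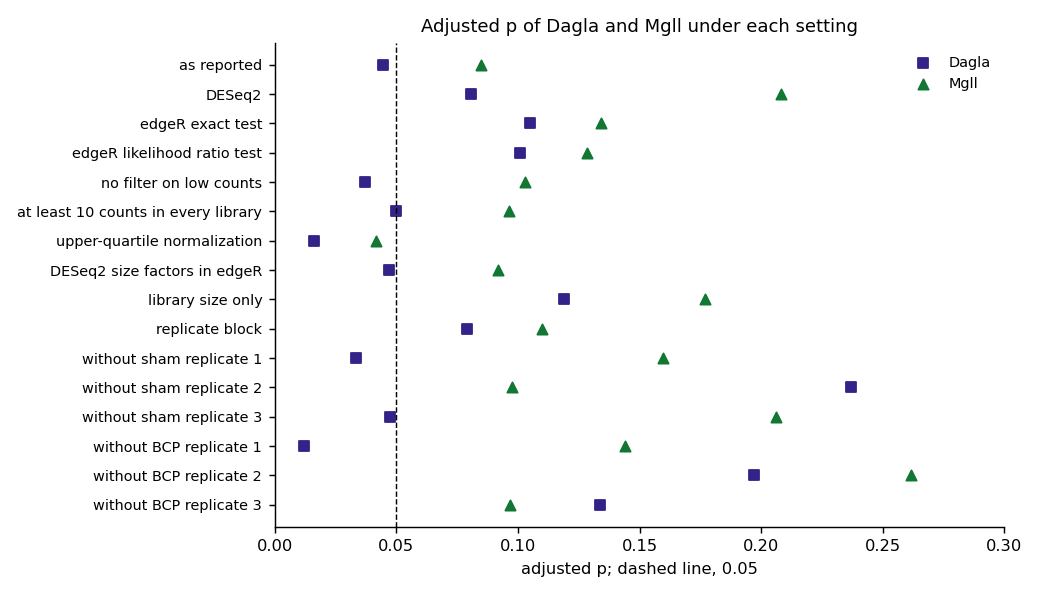
Adjusted p of Dagla and Mgll, the 2 genes nearest the threshold, in the comparison as reported and under 15 alternatives, with a dashed line at 0.05. Dagla lay under the line as reported (0.0446) and in 7 of the 15 alternatives, with a range from 0.0122 to 0.237, and Mgll lay under it with upper-quartile normalization alone (0.0414).

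Napepld, on chromosome 4 at 9966891 to 10002247 (ENSRNOG00000011363), encodes the phospholipase that releases N-acylethanolamines, anandamide among them. It stood at 18.0, 17.7 and 15.3 CPM in sham libraries and at 16.3, 15.8 and 14.8 CPM in BCP libraries, and the groups overlapped. The log2 fold change of Napepld was -0.12 (SE 0.11, adjusted p = 0.463), with a 95% interval from -0.35 to 0.11.

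Faah was listed on chromosome 5 on 2 rows, at 134331929 to 134348995 (ENSRNOG00000011019) and at 134852875 to 134871775 (ENSRNOG00000045949). The first row had a count of 0 in every library, and the second had 1 count in sham replicate 3 and 0 in the other libraries. The neighbor gene Nsun4, which encodes a mitochondrial RNA methyltransferase, was also listed on 2 rows there and had a count of 0 on both rows in every library, whereas RefSeq lists 1 Faah and 1 Nsun4 on GRCr8. Names with a Gene Ontology annotation were compared by the counts of their highest row, summed over all libraries. Of 186 names on 2 rows of 1 chromosome, 122 (65.6%) had at most 3 counts on that row. Of 19180 names on a single row, 4290 (22.4%) did. How reads with several locations were counted is not given in the sources used here, so the level of Faah could not be read from these counts and no fold change was computed.

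Compared per length, Cnr1 was the highest of the genes in sham-operated rats at 19.8 ± 0.620 FPKM (SD, n = 3), followed by Dagla at 18.0 ± 1.45 FPKM. The ranges of these neighbors overlapped, as did those of the next neighbors, Mgll at 14.5 ± 0.455 FPKM and Daglb at 13.5 ± 1.44 FPKM. Abhd6 at 11.4 ± 0.218 FPKM, Napepld at 8.52 ± 0.723 FPKM and Cnr2 at 0.179 ± 0.116 FPKM followed with no overlap between neighbors. In BCP rats Cnr1 stood at 19.5 ± 0.225 FPKM, Dagla at 16.3 ± 1.10 FPKM and Daglb at 15.8 ± 1.56 FPKM, with overlap of the lipases alone. Mgll at 12.9 ± 0.643 FPKM came after Daglb there, and Abhd6 at 10.8 ± 0.826 FPKM, Napepld at 8.06 ± 0.333 FPKM and Cnr2 at 1.69 ± 0.344 FPKM kept their places in the order. Cnr2 thus remained the lowest of the 7 genes in both groups.

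**Figure D4:**
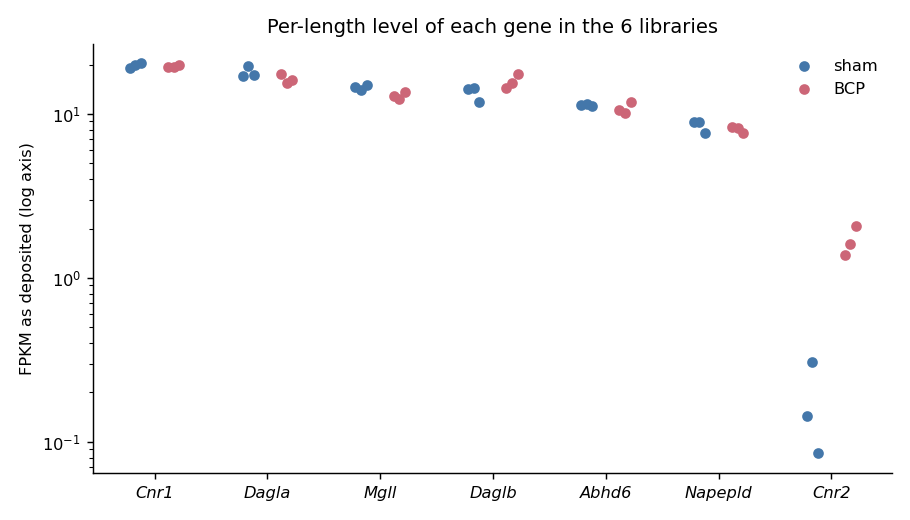
Deposited FPKM of the 7 tested genes on a log axis, with points for libraries of sham-operated and BCP rats. The order from Cnr1 (19.8 FPKM in sham) to Cnr2 (0.179 FPKM in sham) had Cnr1 first and Cnr2 last in both groups, and Cnr2 moved up to 1.69 FPKM in BCP rats.

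A list of 33 other genes of the pathway was examined in the same fit. Of 29 tested, 11 (37.9%) were higher and 4 (13.8%) were lower in BCP rats, against 15.8% and 12.1% of all genes, and 6 were higher by more than 2-fold, against 6.35% of all genes. Their median log2 fold change was 0.02. Ptpn22 and Gpr18 reached the count filter only through BCP libraries, so a lower call was hardly possible for them. Both are among the 11 and among the 6. With at least 10 counts required in every library 26 of the listed genes were tested, and 9 were higher and 4 were lower. Over all genes this filter gave 2102 higher and 1688 lower calls among 14001 tested. The marker lists of microglia and T cells were higher in the same libraries, and their part in these counts was not tested.

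Among 11 tested genes of other routes of ligand synthesis 5 (45.5%) were higher and none was lower, against 15.8% and 12.1% of all genes. Ptpn22 and Inpp5d encode phosphatases of immune cells that can take part in a phospholipase C route to anandamide. Ptpn22 had 2, 2 and 3 counts in sham libraries and 30, 67 and 40 counts in BCP libraries, summed to 7 and 137 counts, a ratio of 21.2 on the same scale with an exact 95% interval of 10.01 to 53.7. Its sham counts did not exceed the floor of 3 in any library, and its fitted log2 fold change was 4.32 (adjusted p = 3.06e-07). Inpp5d had 28.3, 27.7 and 20.6 CPM in sham and 66.03, 84.6 and 79.97 CPM in BCP libraries, with a log2 fold change of 1.59 (SE 0.14, adjusted p = 5.78e-05). Plcb2, a phospholipase C that generates diacylglycerol and is typical of blood cells, had a log2 fold change of 1.44 (SE 0.21, adjusted p = 2.90e-05). The other two, named outside the rule, were Pla2g16 (log2 fold change 0.35) and Plcb3 (0.25).

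Of 3 other degrading enzymes, Ptgs2 was higher. It encodes cyclooxygenase-2, which oxygenates 2-AG and anandamide as well as arachidonic acid, and stood at 9.53, 7.89 and 6.89 CPM in sham libraries and at 21.6, 24.2 and 17.3 CPM in BCP libraries. No library overlapped between the groups, and the log2 fold change of Ptgs2 was 1.38 (SE 0.15, adjusted p = 6.91e-07). Naaa, an acid amidase of N-acylethanolamines, had a log2 fold change of 0.37 and did not pass (adjusted p = 0.0733). Of 3 intracellular carriers Fabp7 was higher, a fatty acid binding protein of glial cells and progenitors, with 60.9, 55.2 and 57.7 CPM in sham and 115, 124 and 121 CPM in BCP libraries. Its log2 fold change was 1.05 (SE 0.06, adjusted p = 3.26e-11).

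Among 6 other receptors of these lipids 4 were tested. Gpr18, a receptor of N-arachidonoylglycine that is known from lymphocytes, had 5, 2 and 2 counts in sham libraries and 27, 49 and 64 counts in BCP libraries. The sums of 9 and 140 counts gave a ratio of 16.8 on that scale with an exact 95% interval of 8.62 to 37.6, and the fitted log2 fold change was 4.003 (SE 0.45, adjusted p = 9.89e-07). Trpv1, the capsaicin channel of nociceptors that anandamide also opens, was lower, with 5.41, 5.17 and 4.12 CPM in sham and 3.64, 2.72 and 2.73 CPM in BCP libraries. Its log2 fold change was -0.70 (SE 0.22, adjusted p = 0.0225), and the call was lost with DESeq2 (adjusted p = 0.0593) and without any of 4 libraries in turn, which were sham replicates 1 (adjusted p = 0.0781) and 2 (0.0790) and BCP replicates 2 (0.0902) and 3 (0.0831). The list of dorsal root ganglion and nerve root, whose neurons express Trpv1, summed to 11.1 to 16.2 CPM in sham and 6.59 to 9.79 CPM in BCP libraries, and its part in the level of Trpv1 was not tested. Gpr55 had 3, 2 and 0 counts in BCP libraries and 0 in every sham library, Gpr119 had 0 in every library, and neither was tested.

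Of 8 partners and transducers of CB1, 3 were higher and 3 were lower (37.5% each), against 15.8% and 12.1% of all genes. Arrb2, an arrestin that binds the activated receptor, had a log2 fold change of 0.56 (SE 0.07, adjusted p = 2.87e-06), and Gnai2, an inhibitory G-protein subunit found in many cell types, had 0.30 (SE 0.05, adjusted p = 2.85e-04). Gnao1, the abundant inhibitory subunit of neurons, had a log2 fold change of -0.27 (SE 0.05, adjusted p = 3.37e-04), and Sgip1, a neuronal protein that slows internalization of CB1, had -0.30 (SE 0.06, adjusted p = 0.00122). Gnai3 (0.32) and Arrb1 (-0.15) also passed and are named outside the rule. Cnrip1, which binds the tail of CB1, had a log2 fold change of -0.08 and did not pass (adjusted p = 0.498).

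**Figure D5:**
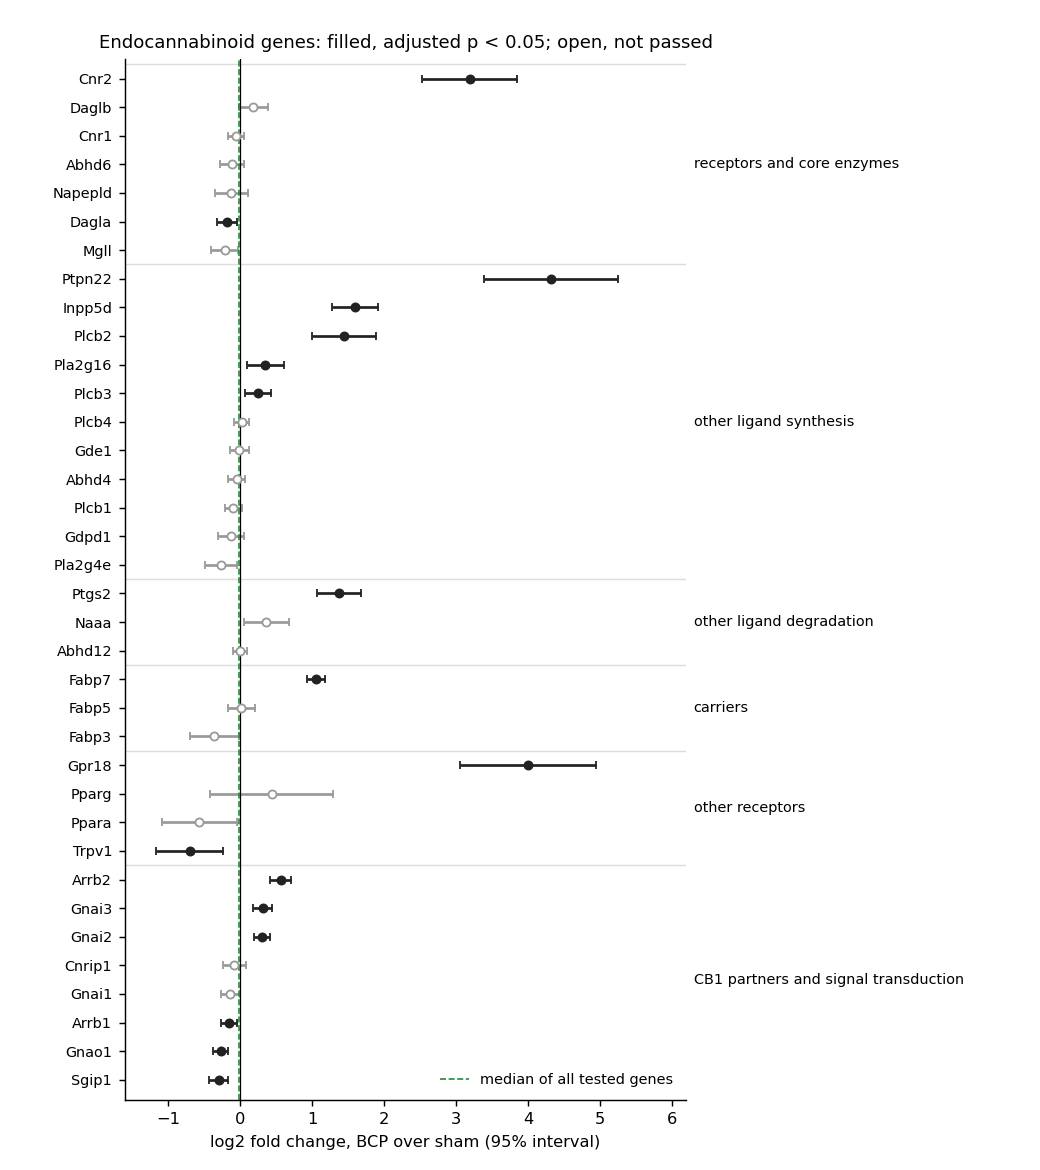
Log2 fold change (BCP over sham) of the receptors and core enzymes and of the other tested pathway genes by class, with 95% intervals from the edgeR fit, filled points for genes that passed the test, a line at 0 and a dashed line at the median of all genes (-0.01). Cnr2 (3.19), Ptpn22 (4.32) and Gpr18 (4.003) lay far to the right, whereas the remaining receptors and core enzymes lay between -0.21 and 0.19.

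The annotation deposited with the counts also assigns genes to retrograde endocannabinoid signaling in KEGG, a set that was taken after values had been seen and that shares genes such as Ptgs2 and Gnao1 with the list above. Without the 8 genes, 73 of its genes were tested, of which 12 (16.4%) were higher and 25 (34.2%) were lower, against 15.8% and 12.1% of all genes. Their median log2 fold change was -0.13, with a range from -0.57 to 2.70. The lower genes included calcium channels of transmitter release (Cacna1a, -0.27), the vesicular transporter of inhibitory transmitters (Slc32a1, -0.32, which is also a neuronal marker here), GABA-A receptor subunits (Gabra3, -0.25, and Gabra5, -0.25) and AMPA receptor subunits (Gria3, -0.16, and Gria4, -0.14), all values being log2 fold changes. None of the 25 differed more than 2-fold. Of the 73 genes 6 were higher by more than 2-fold, against 6.35% of all genes. They were Adcy7, Ptgs2, Adcy4, Gngt2, Kcnj5 and Plcb2. These 12 genes were chosen after their values were seen.

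Long noncoding RNAs (lncRNAs) within 10 kb of the genes were examined in the separate lncRNA table, where 239 of 12157 tested (1.97%) passed in either direction. There were 16 such lncRNAs, 13 of which overlapped the span of a gene, and 7 of the 8 genes had at least 1, the exception being Faah. Of the 4 tested none passed in the edgeR quasi-likelihood test or in DESeq2, and 0 had an unadjusted p under 0.05. The fitted coefficient of variation between libraries was 33.4% for lncRNAs and 7.72% for genes, so differences could more easily be missed in lncRNAs. NONRATT022171.2, at 49329743 to 49331838 of chromosome 5 within the span of Cnr1, had 640, 694 and 765 counts in sham libraries and 549, 643 and 635 counts in BCP libraries, with a log2 fold change of -0.05 (SE 0.06, adjusted p = 0.790). Log2 fold changes were -0.06 (SE 0.18) for NONRATT007284.2 near Daglb, 0.22 (SE 0.27) for MSTRG.10692.1 within Abhd6 and 0.29 (SE 0.43) for NONRATT020704.2 within Mgll. The 3 lncRNAs within Cnr2 were too low to be tested, the highest, NONRATT022745.2, having 4, 1 and 1 counts in sham and 16, 1 and 5 counts in BCP libraries. The use of strand in counting is not given in the sources used here, so reads of a gene and of an lncRNA within it cannot be told apart.

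Likeness to each receptor was measured as Pearson's r of log2 CPM over the 6 libraries, which share the contrast between the groups, so it is a description only. The genes most like Cnr2 were Cd7, a surface protein of T cells and natural killer cells (r = 0.998), Tnfaip8l2, a regulator of immune cell activation (r = 0.998), and Cd244, a receptor of natural killer cells (r = 0.996). Cd7 had a log2 fold change of 3.19 (SE 0.40), Tnfaip8l2 of 2.37 (SE 0.31) and Cd244 of 2.57 (SE 0.29). Like Cnr2 they were low in sham libraries, with means of 0.426, 0.877 and 0.856 CPM in that order. In BCP libraries the means were 3.95, 4.56 and 5.11 CPM. The r values thus rest on the step between the groups and on few sham counts. In all, 38 genes (0.255% of those tested) had r above 0.99 with Cnr2. The genes most like Cnr1 were Fndc4 (r = 0.9903), Fam118a (r = 0.987) and Zfp551 (r = 0.985), none of which passed the test between the groups.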

How the data were processed

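RNA of 6 spinal cord samples, 3 of sham-operated and 3 of BCP rats grouped by the sample labels, was sequenced as strand-specific libraries depleted of ribosomal RNA. The authors used Seqtk to clean the reads, HISAT2 2.0.4 to align them with Rnor_6.0 and StringTie 1.3.0 to estimate expression, and they deposited raw counts and FPKM values for each gene and each lncRNA. How reads were counted, whether by strand, and what was done with multi-mapped reads is not given in the sources used here. Near-identical or overlapping genes could therefore share or lose reads.

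In R 4.3.3, gene and lncRNA counts entered separate fits of edgeR 4.0.16 with TMM normalization (factors 0.982 to 1.02 for genes), the filter by expression of edgeR, a robust quasi-likelihood test of the group and Benjamini-Hochberg adjustment over all 14908 genes or 12157 lncRNAs tested. The call was an adjusted p under 0.05, and a difference of more than 2-fold, the threshold of the study, was counted beside it. Intervals are at 95%. Levels between genes were compared in deposited FPKM only, and 4 ratios were compared by exact permutation of the 6 libraries. The code was tested on simulated counts. The genes, lists and the rule for naming genes were chosen with earlier results of these data known. By that rule all 8 genes were named, as were other pathway genes over 2-fold, the 2 with the smallest p-values past the test per class and direction, every tested lncRNA within 10 kb, and the 3 genes most like each receptor. Promoter windows were those of RefSeq on GRCr8, and coordinates of genes are those of Rnor_6.0 as deposited. Alternatives were DESeq2 1.42.0, other tests, filters and normalizations, a block on the replicate number, TMM-scaled FPKM for the ratios, and each library left out. The columns with descriptions and pathway annotation were used for names and pathway membership only. Counts may include PCR duplicates. The exact intervals of summed counts and the floors cover counting error only. Intervals from the edgeR fit also include the spread between libraries.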

Additional observations from a re-analysis of the deposited data

How the results depend on the processing

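The call of Cnr2 held in all 14 alternatives in which it was tested, with log2 fold changes from 2.84 to 3.85. With at least 10 counts required in every library it was left out by the filter, so that 0 genes were called higher, with or without the 2-fold threshold. The number of genes called lower, 1 as reported, was 0 with DESeq2, the exact test, the likelihood ratio test, library size only and the replicate block, 2 with upper-quartile normalization, and 0 to 1 without 1 library. Adjusted p of Dagla was 0.105 with the exact test, 0.101 with the likelihood ratio test, 0.119 with library size only and 0.0791 with the replicate block. Of 104 alternative values of the 7 genes 95 stayed on the same side of the threshold and 0 changed direction. Of the other pathway genes 9 to 12 were called higher, and the 4 called lower became 2 with DESeq2, 6 with upper-quartile normalization and 2 to 4 without 1 library. The direction of genes near 0 turned for Abhd12 (-0.031 with upper-quartile normalization, and -0.014 without sham replicate 1 to 0.025 without BCP replicate 3), MSTRG.10692.1 (-0.030 without sham replicate 3 to 0.47 without sham replicate 1) and NONRATT007284.2 (0.0018 without sham replicate 2 to -0.16 without sham replicate 1), none of which passed the test. The cause of these shifts was not tested. No lncRNA near the genes was called under any alternative. Over all genes, 2352 higher and 1805 lower calls became 2134 and 2401 with upper-quartile normalization and 2673 and 1257 with library size only. TMM-scaled FPKM leaves the ratios within a library as they were by construction.

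Deviations of libraries with the same replicate number correlated at -0.11, 0.04 and -0.04 over genes, and not every library correlated best with its own number. These values showed no pairing of the samples by number, but 3 libraries per group are too few to exclude one. The replicate block gave 2217 higher and 1597 lower calls. With 3 libraries per group, exact tests of ratios could not give a p under 0.1. Counts of 6 to 21 for Cnr2 in sham libraries limit the precision of its fold change.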
